A study of Mus musculus with 4 samples.

Results

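The cytosolic ribosomal protein genes encode the proteins of the ribosome that works outside mitochondria. They were taken by symbol: Rpl or Rps followed by a digit, Rplp0, Rplp1, Rplp2 and Rpsa, without pseudogenes, the retrogene Rps27rt and the S6 kinases. This gave 85 of the 32285 genes in the deposited feature lists, of which 31 belong to the small subunit and 46 to the large subunit. The other 8 are paralogs or look-alikes of core members: Rpl3l, Rpl7l1, Rpl10l, Rpl22l1, Rpl36al, Rpl39l, Rps27l and Rps19bp1. Rps19bp1 encodes a protein that binds Rps19 and is not itself a ribosomal protein.

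A ribosome carries 1 copy of nearly every one of these proteins, and free copies are degraded, so that output of the genes is kept in balance. Their mRNAs are among the most abundant of a growing cell and carry a 5′-terminal oligopyrimidine (TOP) tract, through which mTOR signalling and Larp1 control their translation. Loss of 1 copy of several of them, RPS19 first among them, causes Diamond-Blackfan anaemia in people, a failure of red cell production in bone marrow. Free Rpl5 and Rpl11 bind Mdm2 and so raise p53.

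The cells were Kit-positive mouse bone marrow of donor type CD45.2, taken 10 weeks after transplantation. The 4 groups had 1 library per group: a control, and donor cells with Mll3 deleted, with Mll4 deleted, or with both, Mll3/4 deleted. Mll3 and Mll4 are histone methyltransferases encoded by Kmt2c and Kmt2d. The strain, the Cre driver, the sex and the number of pooled animals are not given in the sources used here. With 1 library per group no test across samples was possible. Every comparison is therefore between libraries, and intervals cover counting error only.

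The sequence around the start site is shown for members on which the results turn, because the TOP tract begins there. Each line gives 15 bases on either side of the RefSeq start (GRCm38.p6), 5′ to 3′ on the strand of the gene, with the longest run of C and T in capitals. The first 6 lines are members that were higher in the Mll4-labelled library in every cell class and, except Rps27, past 1.5-fold in the B-lineage cells of the Mll3/4-labelled library.
Rpl35 (chr2:39005117-39005146, minus strand): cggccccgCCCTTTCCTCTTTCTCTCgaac
Rpl38 (chr11:114668565-114668594, plus strand): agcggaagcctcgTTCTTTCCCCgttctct
Rps27 (chr3:90213634-90213663, minus strand): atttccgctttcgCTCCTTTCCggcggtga
Rps21 (chr2:180257364-180257393, plus strand): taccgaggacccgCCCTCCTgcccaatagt
Rps28 (chr17:33824548-33824577, minus strand): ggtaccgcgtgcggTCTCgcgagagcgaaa
Rpl37 (chr15:5116598-5116627, plus strand): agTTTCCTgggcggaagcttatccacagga
Rps19 (chr7:24884577-24884606, plus strand): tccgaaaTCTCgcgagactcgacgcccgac
Rpl9 (chr5:65391417-65391446, minus strand): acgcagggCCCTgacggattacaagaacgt
Rpl3l (chr17:24727811-24727840, plus strand): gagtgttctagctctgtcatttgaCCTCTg
Rpl22l1 (chr3:28805493-28805522, plus strand): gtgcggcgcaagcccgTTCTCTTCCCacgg

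The run was 18 bases long in Rpl35, 10 in Rpl38, 9 in Rps27 and 7 in Rps21, and in these 4 it covered the annotated start. In Rps28 it was 4 bases long, in Rpl37 it was 6, and in neither did it cover the start. Of the 14 members past 1.5-fold upwards in the Mll3/4-labelled B-lineage cells or in every class of the Mll4-labelled library, 11 had a window and the run covered the start in those 4 alone. Of the 85 members, 65 had a RefSeq promoter entry. A run of at least 6 bases of C or T, searched on the gene strand only, occurred in 34 of the 65 windows (52.3%), against 29.2% of 32851 windows from all promoters in the table. A run that also covered the start occurred in 17 members (26.15%), against 7.25% of all. A run is a match of letters at 1 annotated start. The windows of Rps19, Rpl9 and Rpl3l hold runs of 4, 4 and 5 bases.

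Depth differed between the libraries. In the order control, Mll3-labelled, Mll4-labelled and Mll3/4-labelled, which all series of 4 values below follow, the deposited counts held 10001, 9491, 6622 and 8284 barcodes. After filtering, 7146, 5860, 5350 and 6917 cells were kept, and the median kept cell had 15754, 16963.5, 5142 and 9965 UMIs (unique molecular identifiers, the counted molecules). Pairs of libraries shared 9 to 24 barcodes. Levels are given in CPM, a gene's UMIs per 1000000 gene UMIs summed over the cells of a class in a library, so they describe shares of mRNA and not amounts per cell. Summed over all cells of a library, the targeted genes did not all follow the labels: Kmt2c stood at 47.9, 27.2, 59.2 and 34.8 CPM, and Kmt2d at 25.8, 21.6, 25 and 24.7 CPM. The mix of cell types differed between the libraries. In the B-cell progenitor-like class described below, Kmt2c stood at 45.3, 25, 36.5 and 34.6 CPM. Kmt2d stood there at 40.2, 25.3, 16.8 (6 UMIs) and 24.7 CPM, so it was below control under every deletion label, the Mll3 label included. In the HSC/MPP-like class Kmt2c stood at 58.4, 35.3, 55.4 and 36.2 CPM. Kmt2d stood at 26.8, 26.1, 24 and 21.7 CPM there, the last from 6 UMIs. A 3′ count can miss a deletion inside the gene, so these values check the deletions only in part, and libraries are called by their labels below. Xist, transcribed from the inactive X chromosome, was at 990, 955, 0.519 and 1840 CPM, so the Mll4-labelled library also stands apart in this. Its part in the results was not tested.

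Cells were clustered together without the ribosomal protein genes and clusters were named from markers as, for example, HSC/MPP-like (stem and multipotent progenitor cells). Of the Mll3/4-labelled cells, 6830 were B-cell progenitor-like and 13 HSC/MPP-like, so this library is compared with control only in the B-cell progenitor-like class. That class held 471 cells in control, 369 in the Mll3-labelled and 143 in the Mll4-labelled library, with median UMI counts of 4389, 6497, 2276 and, in the Mll3/4-labelled library, 9936. The B-lineage markers Cd79a (1800, 1510, 1170 and 3000 CPM) and Pax5 (246, 199, 264 and 368 CPM) were present in all 4 libraries. So were Ebf1 (2590, 2110, 2240 and 1850 CPM) and Vpreb1 (3460, 2870, 1690 and 2840 CPM). Against control, Cd79a and Pax5 were higher in the Mll3/4-labelled cells, and Ebf1 and Vpreb1 were lower. All markers of the class together took 1.34% of the UMIs there, against 1.62% in control. Most of the control, Mll3-labelled and Mll4-labelled cells of the class lay in clusters 0 and 17, and most of the Mll3/4-labelled cells in clusters 22, 23 and 24.

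In control, ribosomal protein mRNA made up 32.75% of all gene UMIs in HSC/MPP-like cells. The share was 30.47% in granulocyte progenitor-like, 31.73% in monocyte/macrophage progenitor-like, 30.62% in megakaryocyte-like and 31.23% in basophil/mast-like cells. It was lower in erythroid progenitor-like (27.28%) and B-cell progenitor-like cells (24.58%). Neutrophil-like cells had the lowest share, 6.41%, in cells where 10 abundant granule RNAs took 37.4% of the UMIs. The median member stood at 3888 CPM in HSC/MPP-like, 2826 CPM in B-cell progenitor-like and 696.6 CPM in neutrophil-like cells of control, the highest and the lowest 2 of the 8 classes.

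**Figure D1:**
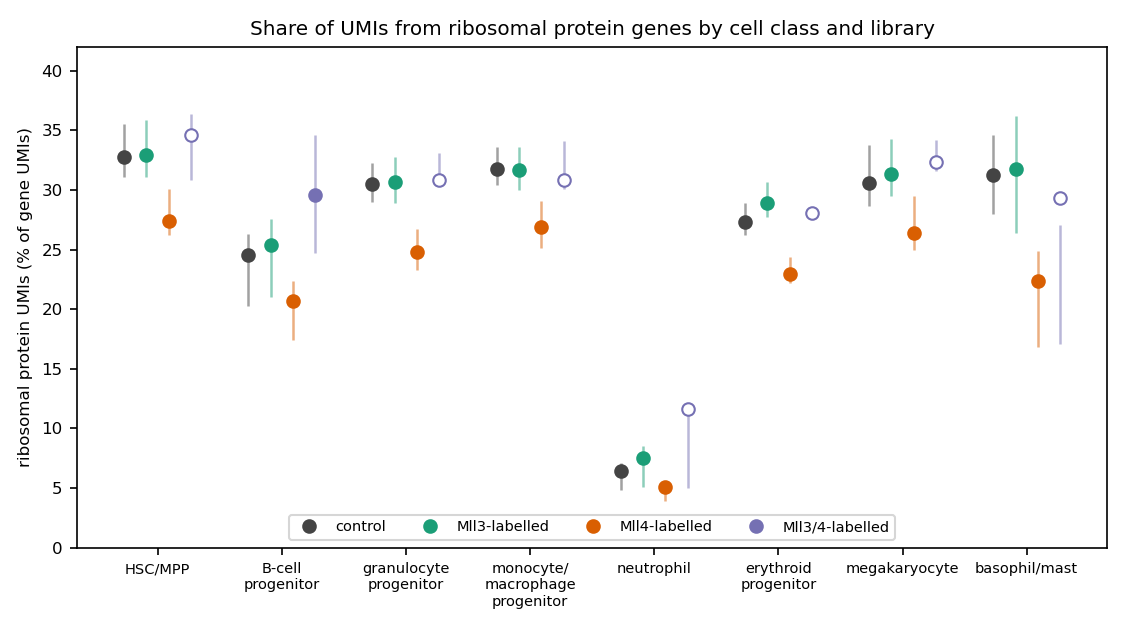
Percent of gene UMIs from the 85 cytosolic ribosomal protein genes, by cell class and library; a point is the share in the summed UMIs of 1 library, a line spans the quartiles over its cells, and an open point marks a class of under 50 cells. The Mll4-labelled library lies below control in all 8 classes compared, and in B-cell progenitor-like cells the Mll3/4-labelled library lies highest at 29.61%.

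In B-cell progenitor-like cells the ribosomal protein share was 24.58% in control (95% exact binomial interval 24.54% to 24.63%). It was 25.39% (25.34% to 25.44%) for the Mll3 label, 20.7% (20.57% to 20.84%) for the Mll4 label and 29.61% (29.6% to 29.62%) for the Mll3/4 label. The log2 ratio of the share to control was 0.27 for the Mll3/4-labelled and -0.25 for the Mll4-labelled cells. Share moved with depth: among control cells of the class it was 21.03% at 1000 to 2999 UMIs, 23.11% at 3000 to 10000 and 26.49% above 10000, against 28.15%, 29.2% and 29.81% in the Mll3/4-labelled library. The Mll3/4-labelled share was thus above control within each depth band. Among cells of 3000 to 10000 UMIs the Mll4-labelled log2 ratio was -0.07, with 43 cells, in place of -0.25. By cluster, the Mll3/4-labelled share was 30.85% in cluster 22, 34.92% in cluster 23 and 23.53% in cluster 24, while control cells had 25% in cluster 0 and 24.33% in cluster 17. Clusters 17 and 24 were the dividing ones, with 8959 and 9248 CPM in total for 20 cell division genes, against 1421, 1125 and 1803 CPM in clusters 0, 22 and 23. Between the dividing clusters the Mll3/4-labelled share was thus not above control, and the higher share lay in clusters 22 and 23.

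In HSC/MPP-like cells the control share of 32.75% stood beside 32.94% for the Mll3 label and 27.44% for the Mll4 label. The Mll3-labelled ratio was close to 0 there (log2 0.01), in granulocyte progenitor-like (0.01) and in monocyte/macrophage progenitor-like cells (-0.002, interval -0.005 to 0.002). It was 0.08 in erythroid progenitor-like, 0.04 in megakaryocyte-like and 0.02 in basophil/mast-like cells. Neutrophil-like cells had the largest Mll3-labelled ratio, 0.24, which was 0.006 among cells of 3000 to 10000 UMIs and 0.68 when doublets were not removed. The Mll4-labelled ratio was negative in all 8 classes, from -0.21 in megakaryocyte-like to -0.48 in basophil/mast-like cells. Within some classes the libraries filled different clusters. Of the neutrophil-like cells, clusters 9 and 15 held 1260 and 368 in control and 30 and 25 in the Mll4-labelled library, and clusters 16 and 18 held 117 and 37 against 714 and 1918. Of the HSC/MPP-like cells, cluster 4 held 723 in control and 60 in the Mll4-labelled library, cluster 5 held 548 and 351, and cluster 13 held 293 and 155.

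Among single members in B-cell progenitor-like cells, 83 had at least 20 UMIs in control or the Mll3/4-labelled library. Of these, 76 were higher and 7 lower in the Mll3/4-labelled library, with a median log2 ratio of 0.27 against 0.02 over 13456 genes measured. Past 1.5-fold, 10 were higher and 1 was lower, while 18.3% of all measured genes were higher and 14.8% lower. At this scaling, the share of members higher by 1.5-fold thus lay below that of all genes, and what the members had was a small difference in 1 direction. The 2 sets differ in abundance: 75 members were at 1000 CPM or more in control, while a gene measured needed only 20 UMIs in either library. Ratios of low genes carry more counting error. Among other genes of at least 100 UMIs in both libraries, the median was -0.07 for at most 360 coding bases, -0.21 for 361 to 600 and -0.15 for longer ones. With a trimmed mean scaling on other genes, which lifts the median of all genes from 0.02 to 0.13, 81 members were higher and 18 were past 1.5-fold upwards. The share of all genes past 1.5-fold was not counted at that scaling, so the 18 cannot be set against it. Rpl7a, Rpl5, Rps3 and Rps4x were among 5 members that then changed sign.

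Rps19 had the largest ratio. It encodes a small-subunit protein needed to mature the 18S rRNA, and lies at chr7:24884371-24889806 (GRCm38, plus strand). Its level was 5157, 5182, 3958 and 10150 CPM in B-cell progenitor-like cells of the 4 libraries. Only the Mll3/4-labelled value stood clearly above control, by a log2 ratio of 0.98 (95% counting interval 0.95 to 1.0), and over 11 alternative settings the ratio ran from 0.90 to 1.14. As a percent of all ribosomal protein UMIs, which removes a shift common to the members, Rps19 was at 2.1%, 2.04%, 1.91% and 3.43% in the same order. By cluster, Rps19 was at 10880 CPM in cluster 22, 11180 CPM in cluster 23 and 8275 CPM in cluster 24 of the Mll3/4-labelled library. Control cells stood at 5257 CPM in cluster 0 and 5094 CPM in cluster 17. All 3 Mll3/4-labelled clusters were above both control clusters, so that Rps19, unlike the share of all members, was higher between the dividing clusters too. Cells of the Mll3/4-labelled library carrying each of the 2 hashtags, whose meaning the labels do not give, stood at 10620 and 9621 CPM, against 5190 and 5143 CPM in control.

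Rps19 was also read in the few other cells of the Mll3/4-labelled library. In its 13 HSC/MPP-like cells Rps19 was at 6558 CPM against 5631 CPM in control, a log2 ratio of 0.22 (0.15 to 0.29). In its 10 granulocyte progenitor-like cells it was at 4681 CPM against 4437 CPM, a ratio of 0.08 (0.01 to 0.15). In its 24 neutrophil-like cells it was at 2174 CPM against 912.9 CPM, a ratio of 1.25 (1.16 to 1.34), which is above the B-lineage value of 0.98. The ribosomal protein share as a whole was 11.6% in those 24 cells against 6.41% in control, with a median ratio of 0.85 over the members. The B-lineage markers took 0.0877% of their UMIs, against 0.00146% in control. As a percent of ribosomal protein UMIs, Rps19 was at 1.87% against 1.42% in neutrophil-like, 1.89% against 1.72% in HSC/MPP-like and 1.52% against 1.46% in granulocyte progenitor-like cells. Of the classes with under 10 such cells, the ratio was 0.19 in megakaryocyte-like, 0.08 in monocyte/macrophage progenitor-like, 0.04 in basophil/mast-like and 0.01 in erythroid progenitor-like cells. No Rps19 value is given for the 19 T/NK/innate lymphoid-like cells, whose ribosomal protein share was 30.72% against 28.54% in 50 control cells. Set against the mean of the HSC/MPP-like and granulocyte progenitor-like ratios alone, the ratio in B-cell progenitor-like cells was larger by 0.83 for Rps19, and against the neutrophil-like cells it was smaller. On the first of these, the next member was Rpl12 at 0.43, the median over 80 members was 0.21, and 75 of them were above 0. Short members such as Rpl41 (-0.02), Rps29 (-0.03) and Rpl39 (-0.06) were near 0 on the same measure. These cells are few, and free RNA from the many B-lineage cells was not removed from them.

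**Figure D2:**
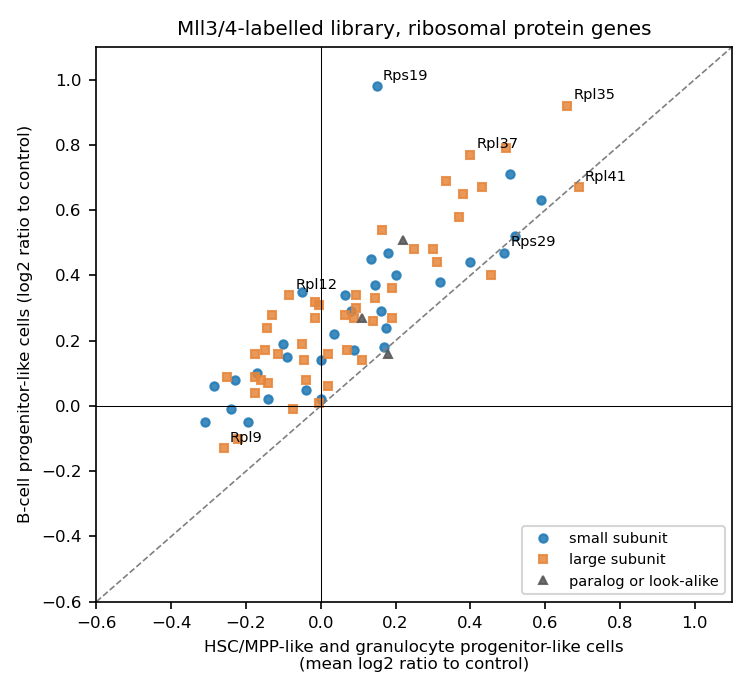
Log2 ratio of the Mll3/4-labelled library to control for each member, in B-cell progenitor-like cells (y axis) against the mean of the residual HSC/MPP-like and granulocyte progenitor-like cells (x axis, 13 and 10 cells). Rps19 lies farthest above the line of equal ratios, by 0.83, and the short members Rpl41, Rps29 and Rpl39 lie close to the line; the 24 neutrophil-like cells are not part of the x axis.

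The other 9 members past 1.5-fold upwards in the Mll3/4-labelled library were mostly small proteins of the large subunit. Rpl35, at the exit of the peptide tunnel, stood at 863, 1425, 1968 and 1638 CPM over the 4 libraries. Rpl36 stood at 1411, 1613, 2159 and 2432 CPM, and Rpl37 at 1584, 1738, 3155 and 2710 CPM. Rps21, of the small subunit, stood at 1448, 1795, 3355 and 2363 CPM. Unlike Rps19, these 4 had their lowest value in control, with all 3 other libraries above it, and Rpl35, Rpl37 and Rps21 were highest in the Mll4-labelled library. Their Mll3/4-labelled log2 ratios were 0.92, 0.79, 0.77 and 0.71, followed by Rpl36a at 0.69, Rpl41 and Rpl38 at 0.67, Rplp1 at 0.65 and Rps28 at 0.63. Rpl41 is the smallest protein of the ribosome, and Rplp1 is part of the stalk that recruits elongation factors.

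At the other end were long members. The Mll3/4-labelled level of Rpl9 was 3946 CPM against 4309 CPM (log2 -0.13), and that of Rpl5, which carries 5S rRNA, 2028 against 2178 CPM (-0.10). Rps3, which lines the mRNA entry, was at 4004 against 4150 CPM (-0.05), with Rps4x at -0.01. None of these 4 differed by as much as 1.5-fold. The most abundant members of control B-cell progenitor-like cells were Rps24 at 7417 CPM, Rpl13 at 6184 CPM, Rps19, Rps20 at 4953 CPM and Rpl32 at 4885 CPM. In the Mll3/4-labelled library Rps19 was above all the others of these 5, with Rps24 at 7928, Rpl13 at 6900, Rps20 at 6075 and Rpl32 at 6177 CPM. By subunit, 3 of 31 small-subunit members were past 1.5-fold upwards with a median of 0.24, and 7 of 46 large-subunit members with a median of 0.27, both below the 18.3% of all genes.

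In the Mll3-labelled library few members differed from control. In B-cell progenitor-like cells 59 of 83 were higher and 24 lower, with a median of 0.04 against -0.09 for all genes. Past 1.5-fold, 1 was higher (Rpl35, 0.72) and 1 lower (Rpl3l, -0.62), against 2.05% and 8.39% of all measured genes. In HSC/MPP-like cells 40 of 82 were higher and 42 lower, and 1 was past 1.5-fold upwards, again Rpl35, from 1220 CPM in control to 2058 CPM (0.75). None was lower by that much, against 1.66% of all genes higher and 2.75% lower. After Rpl35 came Rps29 (3337 and 4633 CPM, 0.47), a zinc-binding protein of the small subunit head, and Rpl38 (1666 and 2259 CPM, 0.44). Rps3 had the lowest ratio (5506 and 4878 CPM, -0.17), then Rplp0 and Rpl5 at -0.13.

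The Mll4-labelled library split the members into a smaller group above control, mostly short genes, and a larger group below it. In HSC/MPP-like cells 9 members were past 1.5-fold upwards and 29 downwards of 82, while 17.5% of all measured genes were higher and 8.35% lower by that much. In B-cell progenitor-like cells the counts were 12 and 31 of 83, against 22.6% and 16.7%. The share of members that were lower was above that of all genes in both classes, and the share higher was below it. Median log2 ratios of the members were -0.37 and -0.45, against 0.16 and 0.10 for all genes measured. With the trimmed mean scaling the medians of all genes moved to -0.05 and -0.14, and the members' counts to 9 and 45 in HSC/MPP-like and to 9 and 47 in B-cell progenitor-like cells. Shares of all genes past 1.5-fold were not counted at that scaling. Only Rpl31, Rpl34 and Rpl22 changed sign.

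The largest upward ratio was that of Rps29, which lies at chr12:69157722-69159186 (GRCm38, minus strand) and has 168 coding bases. In control, Mll3-labelled and Mll4-labelled HSC/MPP-like cells it stood at 3337, 4633 and 11580 CPM, a log2 ratio of 1.79 for the last. Rps28 followed at 1930, 2291 and 6456 CPM (1.74), then Rpl38 at 1666, 2259 and 4997 CPM (1.58). All 3 had the order control, Mll3-labelled, Mll4-labelled from low to high. Rpl35 had 2985 CPM in the Mll4-labelled library (1.29) and Rps27 3865 CPM against 1647 CPM in control (1.23). In B-cell progenitor-like cells Rps29 stood at 2636, 3651, 9309 and 3646 CPM in control, Mll3-, Mll4- and Mll3/4-labelled libraries, and Rps28 at 1406, 1672, 4775 and 2178 CPM. Rps29 made up 1.07%, 1.44%, 4.5% and 1.23% of the ribosomal protein UMIs there. Its excess over control was thus far smaller in the Mll3/4-labelled library (log2 ratio of CPM 0.47) than in the Mll4-labelled one.

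The lowest ratios belonged to members over 360 coding bases. Rpl9, near the base of the stalk, stood at 5650, 5217 and 2894 CPM in HSC/MPP-like cells of control, Mll3-labelled and Mll4-labelled libraries, a log2 ratio of -0.96 in the last. Rpl13 went from 9716 to 5463 CPM (-0.83), Rps7 from 6331 to 3581 CPM (-0.82), Rps10 from 5161 to 2923 CPM (-0.82) and Rps18 from 6475 to 3723 CPM (-0.80). In B-cell progenitor-like cells Rpl9 stood at 4309, 3929, 2133 and 3946 CPM over the 4 libraries, so that the Mll4-labelled value alone was far below the rest. Rpl11 (3634, 3755, 2063 and 3847 CPM) and Rps3 (4150, 3751, 2361 and 4004 CPM) had the same order of Mll4-labelled lowest.

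These ratios varied less over the cell classes than between the members. Over the 80 members measured in all 8 classes, 14 were higher in the Mll4-labelled library in every class, 61 were lower in every class and 5 were mixed. Of the 421 genes with as many UMIs in all 8 classes, the members included, 36.8% were higher and 35.4% lower in every class. In all 8 classes 9 members were past 1.5-fold upwards: Rps29 (log2 1.47 to 1.92), Rps28 (1.37 to 1.83), Rpl38 (1.40 to 1.68), Rpl35 (0.91 to 1.33), Rps27 (1.07 to 1.42), Rps21 (0.88 to 1.29), Rpl39 (0.84 to 1.12), Rpl37 (0.63 to 0.99) and Rpl37a (0.82 to 0.98). Downwards, 22 members were past 1.5-fold in all 8, led by Rpl9 (-1.25 to -0.83). Of the 421 genes 8.08% were past 1.5-fold upwards and 5.7% downwards in all 8, and the 22 members were most of the 24 downwards. The range of a member over the 8 classes had a median of 0.32. The medians of the 80 members spanned 2.8 from the lowest to the highest. The second value is an extreme over more values, so the 2 are unlike measures. In the Mll3-labelled library 21 were higher in all classes, none lower in all and 59 mixed, and Rpl35 alone was past 1.5-fold in every class (0.68 to 1.07). Of 725 genes compared in the same way 12.8% were higher and 8.41% lower in every class. Past 1.5-fold in every class were 0.414% upwards and 0.0% downwards. The 8 classes share the library and its depth and do not count as replicates.

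**Figure D3:**
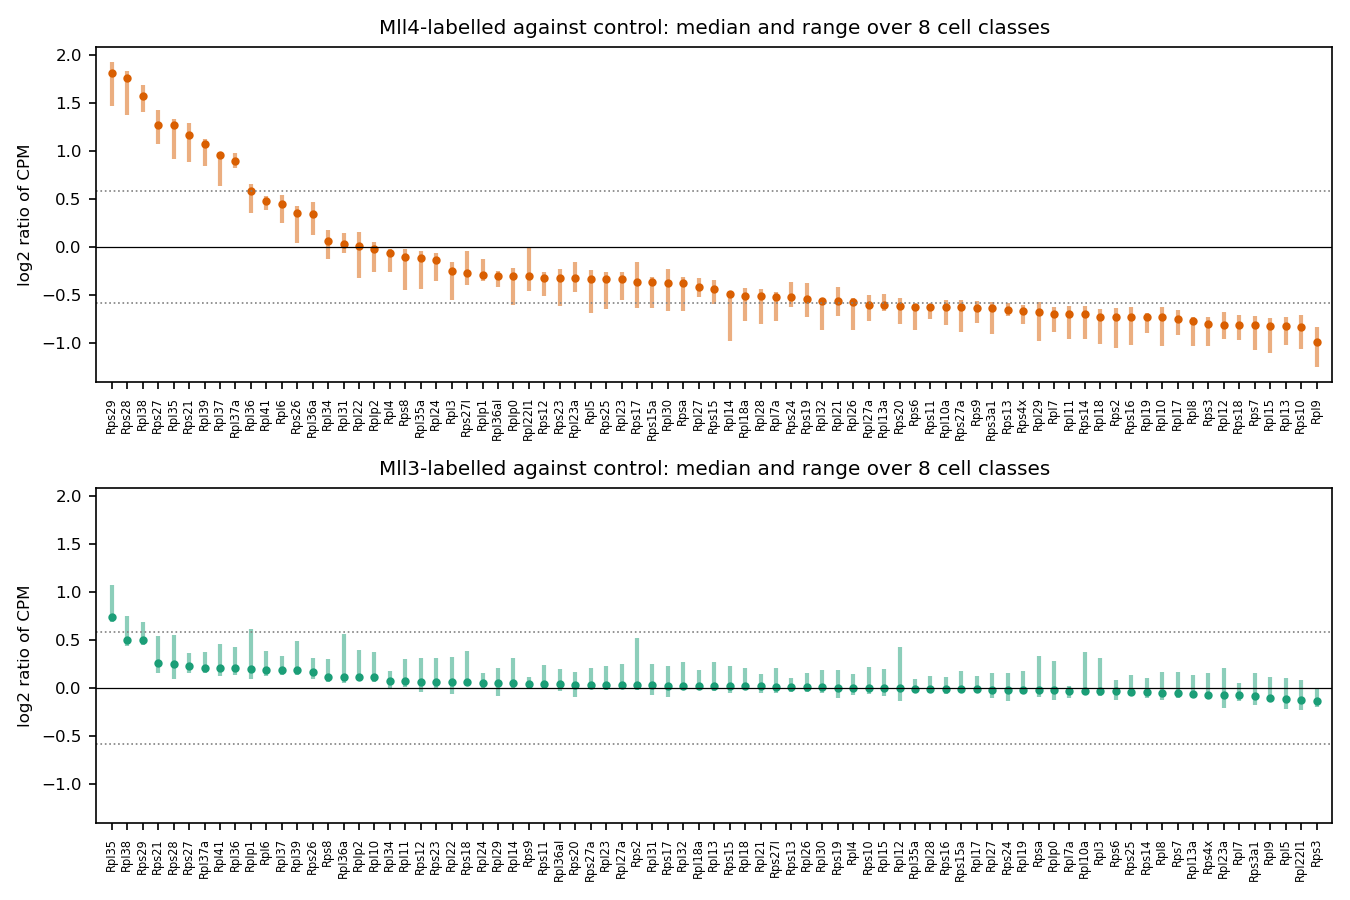
Range (line) and median (point) over 8 cell classes of the log2 ratio of CPM to control for the members shown, with dotted lines at 1.5-fold, for the Mll3-labelled and Mll4-labelled libraries. In the Mll4-labelled library each member keeps to a narrow range while members differ from about 1.8 (Rps29) to about -1.0 (Rpl9).

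Length, which the choice of genes did not use, went with the ratios of the members. Of the 85 members, 21 have at most 360 coding bases, of which 20 entered these groups. In the Mll4-labelled HSC/MPP-like cells the median log2 ratio was 0.44 for members of at most 360 coding bases, -0.55 for those of 361 to 600 and -0.61 for those over 600. Of the 20 short members 13 were higher and 7 lower there, so that they did not all move together. In the Mll3/4-labelled B-cell progenitor-like cells these medians were 0.53, 0.27 and 0.07 with all 20 short members higher, and in the Mll3-labelled HSC/MPP-like cells 0.15, 0.0 and -0.06. Across genes, the log2 ratio and log2 coding length had a Pearson correlation of -0.61 (Spearman -0.59, n = 82 genes) in the Mll4-labelled HSC/MPP-like cells. It was -0.57 (-0.59, n = 82) in the Mll3-labelled HSC/MPP-like cells and -0.65 (-0.75, n = 82) in the Mll3/4-labelled B-cell progenitor-like cells. Rpl6, a long member at 2369, 2598, 3181 and 2933 CPM in B-cell progenitor-like cells, was an exception and lay above control for all 3 labels. The genes are measured in the same cells and are not independent, and the comparisons share the control library.

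**Figure D4:**
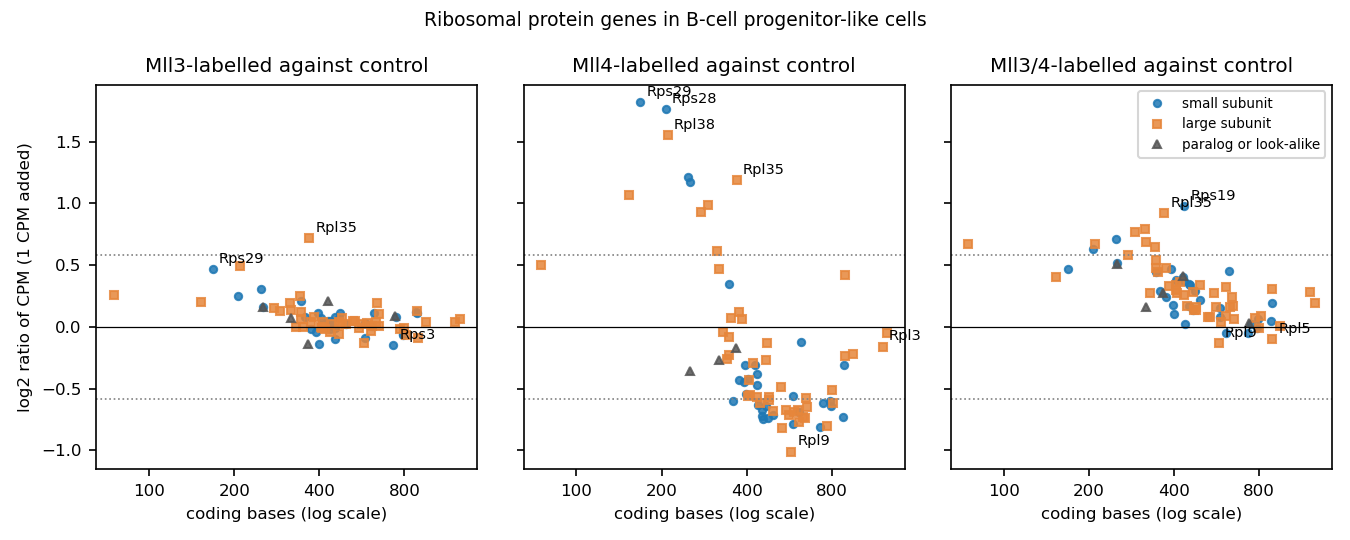
Log2 ratio of CPM to control (1 CPM added) of each member in B-cell progenitor-like cells against its coding bases (log axis), 1 panel per library, with dotted lines at 1.5-fold. Short members tend to lie above long ones, with Pearson correlations of -0.48, -0.62 and -0.65 from left to right and the widest spread in the Mll4-labelled library.

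Genes outside the ribosome gave another picture by coding length than by transcript length. By coding length in the Mll4-labelled HSC/MPP-like cells, 297 other genes of at most 360 coding bases had a median log2 ratio of -0.15, 613 of 361 to 600 had -0.16 and 4006 longer ones had 0.29, the reverse of the members. Grouped by the length of the principal transcript in HSC/MPP-like cells, 9 other genes of at most 400 bases had a median log2 ratio of 1.99, and 8 of them were higher. For 31 genes of 401 to 500 bases the median was 0.39, for 275 genes of 701 to 1000 bases it was -0.42, and for 3348 genes over 2000 bases 0.32. The members had 1.21 (4 genes), -0.04 (7), -0.61 (27) and -0.36 (6) in the same length groups. Members and other genes thus had the same order among these groups up to 1000 bases, while beyond 2000 bases the other genes lay above 0 and the members below it. Atp5k, a small subunit of ATP synthase, went from 122.6 to 465.6 CPM, and mt-Nd3 and mt-Nd4l, short mitochondrial genes of complex I, from 207.6 to 872.5 and from 106.6 to 341.4 CPM. These 3 were chosen after their values were seen. In the Mll3/4-labelled B-cell progenitor-like cells the other genes had 0.12, 0.10, -0.19 and -0.12, and the members 0.61, 0.63, 0.17 and 0.23, so the members lay above other genes of their length there. In the Mll3-labelled HSC/MPP-like cells the other genes lay between -0.02 and 0.08. The part of transcript length, and of the low depth of the Mll4-labelled library, in these ratios was not tested.

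The paralogs did not move as 1 group. Rpl3l, a paralog of Rpl3 known from heart and skeletal muscle (chr17:24727820-24736143, GRCm38, plus strand), had 56 UMIs in 48 of 471 control B-cell progenitor-like cells (10.2%, 17.6 CPM). It had 32 UMIs in 27 of 369 Mll3-labelled cells (7.32%, 11.1 CPM), none in 143 Mll4-labelled cells and 4 UMIs in 4 of 6830 Mll3/4-labelled cells (0.0586%, 0.0527 CPM). The level was 334-fold lower in the Mll3/4-labelled library (counting interval 123 to 1270) and 1.58-fold lower for the Mll3 label (1.01 to 2.53). For the Mll4 label it was at least 2.09-fold lower, taking 3 UMIs over the library as the floor. With cells thinned to 2000 UMIs, the percent of cells with Rpl3l was 5.9, 3.13, 0 and 0.0296 over 441, 351, 74 and 6747 cells, and a count of 0 in the 74 allows up to 4.05% of cells with a UMI at that depth by the floor of 3 cells (exact upper bound 4.86%). As background, 0.703% of control HSC/MPP-like cells, at a greater depth, held Rpl3l. Most of the control UMIs lay in cluster 0, with 52 UMIs or 41.23 CPM, against 4 UMIs or 2.086 CPM in control cluster 17. In the Mll3-labelled library cluster 0 had 26 UMIs (23.98 CPM) and cluster 17 had 6 (3.342 CPM). Clusters 22, 23 and 24 of the Mll3/4-labelled library had 3, 1 and 0 UMIs, so that the class is made of different clusters in the 2 libraries. With 1 CPM added, the Mll3/4-labelled log2 ratio was -4.14 against all control cells of the class. It was -5.33 against control cluster 0 alone and -1.55 against control cluster 17 alone, where control has only 4 UMIs. The 334-fold above was taken without the added 1 CPM, so it is not on the same scale as these ratios.

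**Figure D5:**
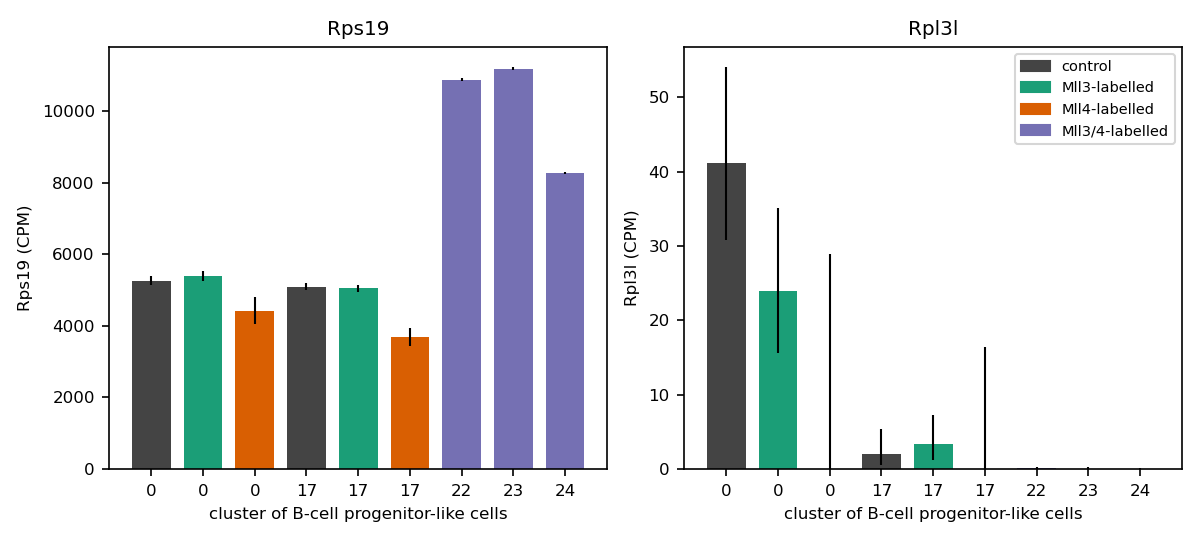
Level in CPM of Rps19 and Rpl3l in the main clusters of B-cell progenitor-like cells, coloured by library; lines on the bars are exact 95% counting intervals. Rps19 is between 8275 and 11180 CPM in the 3 Mll3/4-labelled clusters, and Rpl3l is highest in control cluster 0 at 41.23 CPM.

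Rpl22l1, the paralog of Rpl22, stood at 655.6, 595.6, 583.9 and 790 CPM in B-cell progenitor-like cells. It made up 26.9%, 24.1%, 24.0% and 26.0% of the UMIs of the pair Rpl22 and Rpl22l1, so the pair kept nearly its ratio. In erythroid progenitor-like cells the percentages were 34.5, 29.9 and 29.5 without the Mll3/4-labelled library. Rps27l, a p53 target and paralog of Rps27, stood at 400.7, 449, 311.6 and 570.5 CPM in B-cell progenitor-like cells. Its part of the pair with Rps27 was 18.4%, 18.4%, 7.23% and 18.3%, and in erythroid progenitor-like cells 43.2%, 36.3% and 19.5% in control, Mll3- and Mll4-labelled libraries. Beside these stands the level of Rps27 itself, 1777, 1989, 4000 and 2552 CPM in B-cell progenitor-like cells. Rpl36al stood at 781.3, 821.3, 645.6 and 875.5 CPM, Rpl7l1 at 76.05, 81.26, 120.7 and 77.58 CPM, and Rps19bp1 at 37.71, 43.75, 61.76 and 50.26 CPM. Rpl10l had no UMI in these cells in any library, and Rpl39l had 18 UMIs in 7 cells of the Mll3/4-labelled library. Reads of Rpl36al, Rpl10l and Rpl39l can be split with near-identical copies, as can those of members with many pseudogenes, so these values are uncertain. The left-out retrogene Rps27rt, a near copy of Rps27, stood at 103, 34.4, 109 and 113 CPM.

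Of the 22 mouse counterparts of Diamond-Blackfan anaemia genes, 3 were past 1.5-fold upwards and none downwards in Mll3/4-labelled B-cell progenitor-like cells, with a median of 0.28, against 18.3% and 14.8% of all genes. Rps26, another of them, stood at 2300, 2662, 2928 and 3113 CPM over the 4 libraries. Rpl5 stood at 2178, 2047, 1841 and 2028 CPM. In the Mll4-labelled library 4 of the 22 were past 1.5-fold upwards and 8 downwards in B-cell progenitor-like cells (22.6% and 16.7% of all genes). In HSC/MPP-like cells 4 were past it upwards and 7 downwards (17.5% and 8.35%). With the Mll3 label 1 was past 1.5-fold upwards, Rpl35, and none downwards in each of these classes. Of all genes, 2.05% were higher and 8.39% lower by that much in B-cell progenitor-like cells, and 1.66% and 2.75% in HSC/MPP-like cells. Rps19 and Rpl35 are the 2 with the largest ratios of all members in the Mll3/4-labelled cells.

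Genes that act around the ribosome were counted beside the members. Their counts past 1.5-fold stand against 18.3% of all genes higher and 14.8% lower by that much in the first comparison. In Mll3/4-labelled B-cell progenitor-like cells 11 of 46 ribosome biogenesis genes were past 1.5-fold upwards and none downwards, with a median of 0.32. Wdr43, of the small-subunit processome, went from 55.94 to 97.18 CPM, the nucleolar GTPase Gnl3 from 70.71 to 121.6 CPM and Ubtf, a factor of rRNA transcription, from 103.4 to 173 CPM. Of 24 other TOP and translation genes 3 were past 1.5-fold upwards, all hosts of small nucleolar RNAs: Snhg8 (0.81), Gas5 (481.8 to 802.1 CPM, 0.73) and Snhg1 (0.73). None of the 24 was past it downwards. By sign alone 15 of them were higher and 9 lower, with a median of 0.04. Past 1.5-fold, 7 of the 78 mitochondrial ribosomal protein genes were lower and none higher, both below the shares of all genes. By sign alone 65 were lower and 13 higher, with a median of -0.23. Of 13 regulators measured, 2 were past 1.5-fold upwards and 2 downwards. Myc, which drives these genes, was at 32.37 and 57.09 CPM (0.80), and Rptor, of mTOR complex 1, at 49.66 and 16.75 CPM (-1.51). Of 14 p53 targets 6 were past 1.5-fold upwards and 3 downwards. By sign alone 10 were higher and 4 lower, with a median of 0.53. Cdkn1a, the inhibitor of cell cycle kinases, was at 49.66 and 32.35 CPM, and Bax had a log2 ratio of 0.27.

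Other RNA moved with the comparison. A list of 20 cell division genes summed to 3808 CPM in the Mll3/4-labelled and 5967 CPM in the control cells of the class. Of the 20, 19 were lower and 1 higher, with a median of -0.70. Past 1.5-fold, 12 were lower and none higher, against 14.8% and 18.3% of all genes. Granule RNA from neutrophils summed to 3162 CPM in control B-cell progenitor-like cells, 7139 CPM for the Mll4 label and 110 CPM for the Mll3/4 label. Leaving out granule, mitochondrial, haemoglobin and immunoglobulin UMIs, the Mll3/4-labelled share ratio stayed at 0.27.

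In the Mll4-labelled HSC/MPP-like cells 11 of 46 biogenesis genes were past 1.5-fold upwards and 1 downwards (median 0.28). Of 78 mitochondrial ribosomal protein genes 2 were past it upwards and 12 downwards (median -0.27). Both stand against 17.5% and 8.35% of all genes. By sign alone 36 biogenesis genes were higher and 10 lower, and 21 mitochondrial ribosomal protein genes were higher and 57 lower. Tpt1, a TOP mRNA, was lower by a log2 ratio of -0.98, while Eif4b (0.88) and Snhg8 (0.98) were higher. In B-cell progenitor-like cells of that library the counts past 1.5-fold were 16 and 1 of 44 for biogenesis and 4 and 23 of 78 for the mitochondrial ribosome. All genes had 22.6% and 16.7%. With the Mll3 label none of 46 biogenesis genes and none of 78 mitochondrial ribosomal protein genes was past 1.5-fold in HSC/MPP-like cells. Over all genes these shares were 1.66% higher and 2.75% lower.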

How the data were processed

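Single-cell RNA and barcoded antibodies were measured with the 10x Genomics 3′ version 3.1 kit, per the labels' protocols. The submitters' processing notes name Cell Ranger 6.1.2 and mm10; the annotation release is not given in the sources used here. The deposited values are UMI counts, not normalized by the authors, and the antibody and hashtag counts were used only for hashtags. The members and gene lists were chosen with earlier results of these data known.

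Barcodes with at least 500 genes, at least 1000 UMIs and at most 10% mitochondrial UMIs were kept. Scrublet scores (expected rate 0.06) were used to remove 0.8% of cells per 1000 barcodes, between 5.29% and 8.01% per library, because its automatic threshold called 0.054% in the Mll3/4-labelled library. Cells were clustered with scanpy 1.11.5 (2000 variable genes without the members, 30 components, 15 neighbours, resolution 1, seed 0). Classes were named from 116 markers of 14 classes, and 3 clusters with 1420 of 25273 cells stayed unnamed. Rebuilt names may differ from those of the study. Free RNA was not corrected.

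UMIs were summed per class and library and scaled to CPM. Log2 ratios have a pseudocount of 1 CPM, which understates changes of low genes, and need at least 20 UMIs in either library and classes of at least 50 cells. Past 1.5-fold means a log2 ratio beyond 0.585. Intervals are exact binomial or Poisson at 95% (scipy 1.17.1) and cover counting error only. The calling step was tested on simulated counts of 4286 genes of at least 100 UMIs, with 200 changed genes, and called 1 of 4086 unchanged genes. The simulated libraries were drawn from the control B-cell progenitor-like profile without a difference in depth. The rate of false calls at the limit of 20 UMIs and at the unequal depths compared here is therefore not given by it.

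Named members are the paralogs, the 5 most abundant in control B-cell progenitor-like cells, the 5 largest and 5 smallest ratios of each comparison with at least 100 UMIs in both libraries, those past 1.5-fold in most classes, and 4 Diamond-Blackfan anaemia examples. For other lists the 3 genes with the largest ratios were eligible. Other names were chosen after values were seen. Gene positions are from GENCODE M21 (GRCm38), which holds 32235 of the 32285 gene identifiers, and sequences from RefSeq (GRCm38.p6). Sequences of chromosome 18 genes were not used. The values of 1 member are not reported here by name and are left out of the plot of ranges over cell classes; it is kept in all counts, medians and sums.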

Additional observations from a re-analysis of the deposited data

How the results depend on the processing

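Log2 ratios of the ribosomal protein share to control were recomputed one choice at a time. With trimmed mean scaling on other genes they were 0.026 (Mll3-labelled) and -0.4934 (Mll4-labelled) in HSC/MPP-like cells, and 0.1331, -0.4979 and 0.3907 (Mll3/4-labelled) in B-cell progenitor-like cells. In the same order they were 0.0139, -0.2989, 0.0137, -0.0664 and 0.337 in cells of 3000 to 10000 UMIs, 0.0181, -0.2405, 0.0626, -0.1939 and 0.3101 with the first hashtag alone, and 0.0002, -0.2733, 0.0409, -0.3007 and 0.226 with the second. With only members over 360 coding bases, an alternative chosen after seeing the data, they were -0.0202 (main value 0.0082, so the sign reversed), -0.5079, 0.0177, -0.5158 and 0.212. As the mean over cells, the Mll4-labelled HSC/MPP-like value was -0.2401 and the B-cell progenitor-like values were 0.0519, -0.2113 and 0.3438. Without doublet removal the HSC/MPP-like values were 0.0105 and -0.2741 and the Mll3-labelled B-cell progenitor-like value 0.0553. With at most 5% mitochondrial UMIs they were 0.0173 and -0.2638 in HSC/MPP-like cells and 0.2641 for the Mll3/4-labelled library. At resolution 2 the HSC/MPP-like values were 0.0142 and -0.2199, with another seed 0.0205 and -0.2691, and with the members kept among the variable genes the Mll4-labelled value was -0.2783. Without mitochondrial, granule, haemoglobin and immunoglobulin UMIs the Mll3-labelled HSC/MPP-like value was 0.0122 and the Mll3/4-labelled value 0.2715. Against control cluster 0 alone, added after seeing the data, the latter was 0.2443, and against cluster 17 alone 0.2832. The count of members past 1.5-fold in the Mll3/4-labelled library, 11, became 19 with trimmed mean scaling and 3 with members over 360 coding bases.

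In the other classes the sign reversed in 5 of 111 alternatives, all for the Mll3-labelled library: granulocyte progenitor-like cells with members among the variable genes (-0.0004) or only members over 360 coding bases (-0.0237), megakaryocyte-like cells of 3000 to 10000 UMIs (-0.0312), and basophil/mast-like cells of 3000 to 10000 UMIs (-0.0097) or with members over 360 coding bases (-0.0039). The cause of these differences was not tested. No paired analysis was possible because each group has 1 library. For the same reason no library could be left out. Depth limits the Mll4-labelled B-cell progenitor-like values most, with 143 cells and a median of 2276 UMIs.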
